A study of Rattus norvegicus with 18 samples.

Results

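The genes described here are 49 members of the transforming growth factor beta (TGF-beta) superfamily pathways, found by name among the 22081 genes of the deposited rat lung tables. All 49 were present. By textbook function, 13 belong to the TGF-beta arm (ligands, latent TGF-beta binding proteins, receptors, Smads and a target) and 8 to the activin arm. A further 25 belong to the bone morphogenetic protein (BMP) arm and 3 are shared. The arms and roles were assigned with earlier results of these data known. RNA was sequenced from the lungs of 18 male F344 rats, with 3 rats of the control group and 3 MWCNT-treated ones at each of 3 time points, called Year 0.5, Year 1 and finally Year 2. MWCNT-treated rats were instilled intratracheally with MWNT-7, a long, rigid multi-walled carbon nanotube, at 0.5 mg/kg every 4 weeks from 9 weeks of age, and control rats received the vehicle only. The tissue was a piece of the accessory lobe without tumors, and the 3 rats of each group were picked at random. The paper allows that such pieces may still have held focal lesions, among them reactive or atypical hyperplasia and early adenomatous changes. All rats were of the same inbred strain and different rats were killed at each time point, so age and the number of instillations increased together.

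TGF-beta ligands are secreted in a latent form, held in the matrix by latency proteins, and once released they bind a type II receptor that recruits a type I receptor, which phosphorylates Smad2 and Smad3. Activins use the same Smads through their own receptors. BMPs signal through Smad1, Smad5 and Smad9, which induce the *Id* genes and the inhibitory *Smad6*. In lung vessels the BMP arm is carried by the endothelial receptor ALK1, encoded by *Acvrl1*, with endoglin and the type II receptor BMPR2, while TGF-beta is best known in the lung for its part in matrix deposition and fibrosis.

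In these lungs the arms moved unequally. The BMP receptor genes *Acvrl1*, *Eng*, *Bmpr2* and *Bmpr1a*, the ligand *Bmp6* and the inhibitory *Smad6* were lower in MWCNT-treated rats at every time point. *Tgfb1*, *Tgfb2*, the type I TGF-beta receptor *Tgfbr1*, the activin subunit *Inhba* and the BMP antagonist *Nog* were higher. Within the arms some members went the other way. *Tgfbr3*, *Ltbp1* and *Ltbp4* of the TGF-beta arm were lower at every time point, and the BMP target *Id2* was higher. *Tgfb3* did not pass at any time point, and the abundant BMP ligand *Bmp4* was not lower. The receptor Smads of the TGF-beta arm did not pass the test at any time point.

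Total counts per library ranged from 13297643 to 17868851 in control rats and from 14661589 to 21130757 in MWCNT-treated rats, and correlations of log2 values of a library with the other libraries of its group were between 0.9838 and 0.9914. The lung labels were met by the markers. Summed TPM (a share of a library's transcripts, a level scaled for gene length) of 5 alveolar type 2 markers was 27160 to 35810 in control rats and 50450 to 60050 in MWCNT-treated rats, with all 5 higher at each time point. That of 4 neutrophil markers was 191.8 to 339 and 346.4 to 1112, with 1, 2 and 2 of 3 tested higher. The summed TPM of 7 macrophage markers was 505.9 to 719.6 in control rats and 3903 to 7062 in MWCNT-treated rats, with all 7 higher at each time point. The summed TPM of 9 endothelial markers was 3362 to 4380 in control rats, and 1632 to 2263, 1535 to 2041 and 1096 to 1567 in MWCNT-treated rats at the successive time points. Of these 9 endothelial markers, 9, 8 and 8 were lower, and none was at 0. Of 5 alveolar type 1 markers 5, 4 and 5 were lower, and of 5 smooth muscle and pericyte markers 5, 5 and 4 were lower, while of 7 fibroblast markers 2, 0 and 2 were higher and 4, 3 and 4 lower. Of 7 tested heart muscle markers 7 were lower at Year 0.5 and 1 at Year 1, as was 1 of 5 at Year 2, and these markers ranged from 15.6 to 671 TPM in sum, with *Nppa* at 0 in every rat of 4 of the 6 groups. The summed TPM of 2 airway markers was 17980 to 32660 in control rats and 10450 to 15460 in MWCNT-treated rats. That of 3 markers of capillary subtypes was 353.5 to 512.5 and 114.1 to 240.8. Over all rats, the sums of mesothelial, B and plasma cell, and T cell markers overlapped between control and treated rats. The part of these cell populations in the results for the members was not tested. In bulk tissue, fewer cells of a type and less RNA per cell cannot be told apart.

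Counts were compared by the quasi-likelihood test of edgeR with TMM scaling, and a gene passed the test at a false discovery rate (FDR) below 0.05 over all genes tested. DEGs also had an absolute log2 fold change above 1. At Year 0.5, 11 of the 49 members were higher and 20 lower in MWCNT-treated rats, beside 20.2% of all genes tested that were higher and 18.6% that were lower. At Year 1, when *Grem1* was too low in counts to be tested, 11 of 48 were higher and 21 lower, beside 21.6% and 19.6% of all genes. At Year 2, 15 were higher and 20 lower, beside 25.2% and 24%. The lower calls were thus 40.8%, 43.8% and 40.8% of the members tested, above the share of all genes, while the higher calls were 22.4%, 22.9% and 30.6%, nearer to it. The median log2 fold change of the members was -0.18, -0.36 and -0.09, and that of all genes was -0.02, 0.00 and -0.01. With scaling by library size only, which lowered the median of all genes by 0.104, 0.134 and 0.171, there were 10 higher and 26 lower calls at Year 0.5, 9 and 28 at Year 1 and 11 and 23 at Year 2. The higher calls then made up 27.8%, 24.3% and 32.4% of all calls, in place of 35.5%, 34.4% and 42.9%.

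DEGs numbered 3 upregulated and 4 downregulated of 49 members at Year 0.5, against 6.07% and 3.03% of all genes. At Year 1 they were 3 and 6 of 48, against 6.13% and 4.09%, and at Year 2 they were 7 and 8 of 49, against 8.17% and 8.22%. The upregulated share was thus near that of all genes at Year 0.5 and Year 1, and the other shares were above it. Of the 49 members, 20 were DEGs at some time, a larger share than the 19.6% of all genes tested. The 4 that were DEGs at all 3 time points, beside 5.23% of all genes, were *Tgfbr1*, *Inhba*, *Nog* and *Smad6*. Passing the test alone, 10 of the 48 members tested at each time point were higher at all 3 and 17 were lower at all 3, beside 14.8% and 12.2% of all genes. Of all 49 members, a further 11 passed at 1 or 2 time points and 11 at none. *Grem1*, not tested at Year 1, is counted among those that passed at 1 or 2.

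The arms differed in direction. In the BMP arm 15 of 25 members were lower and 3 higher at Year 0.5, 16 of 24 and 3 at Year 1, and 14 of 25 and 5 at Year 2, with medians of -0.67, -0.68 and -0.51. In the TGF-beta arm 6 of 13 were higher and 3 lower at both Year 0.5 and Year 1, and 7 and 3 at Year 2, with medians of 0.08, 0.05 and 0.27. The activin arm had 2, 2 and 3 higher and 0, 1 and 1 lower among its 8 members, with medians of 0.07, -0.03 and 0.10, and of the 3 shared members 2, 1 and 2 were lower. The share lower was 60%, 66.7% and 56% in the BMP arm, beside 18.6%, 19.6% and 24% of all genes tested. The share higher was 46.2%, 46.2% and 53.8% in the TGF-beta arm, beside 20.2%, 21.6% and 25.2%. Lower calls of the TGF-beta arm (23.1% each time) and higher calls of the activin arm (25%, 25% and 37.5%) lay nearer to the share of all genes. Thus 13 of the 17 members that were lower at all 3 time points belonged to the BMP arm, which holds 25 of the 49 members. Of the 10 that were higher at all 3, 6 belonged to the TGF-beta arm, which holds 13. These counts describe the arms and were not tested against each other.

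**Figure D1:**
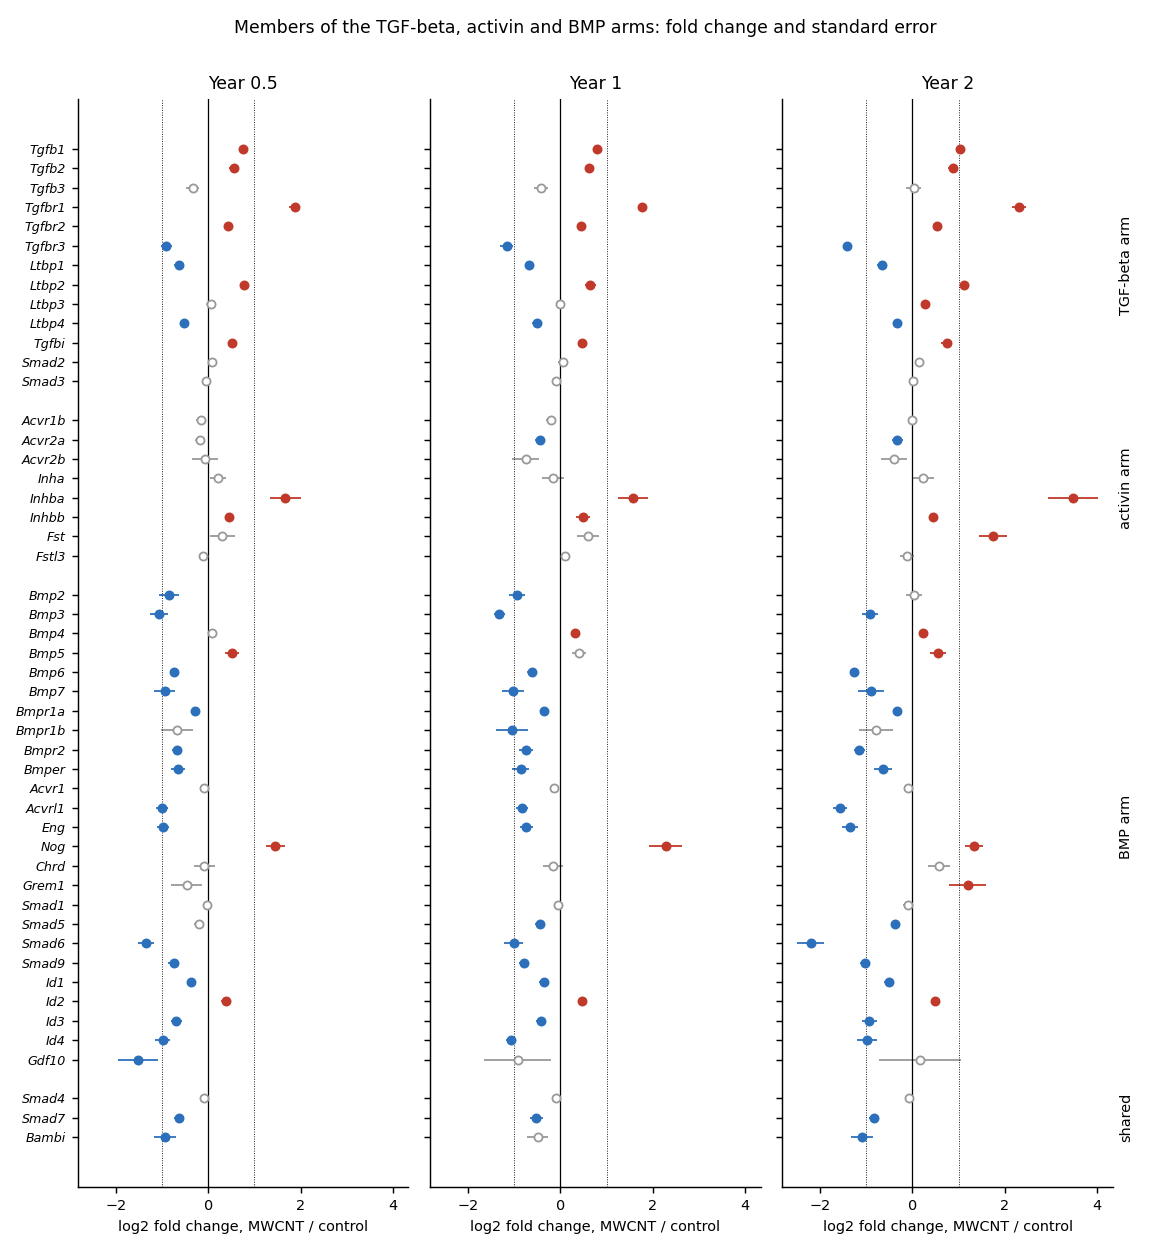
Log2 fold change of MWCNT-treated over control rats (x axis) with its standard error for each of the 49 members (rows, by arm), in 1 panel per time point. Red points were higher and blue points lower at an FDR below 0.05, open points did not pass, and dotted lines mark a log2 fold change of 1 either way; the BMP arm lies mostly to the left, with *Nog* far to the right.

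**Figure D2:**
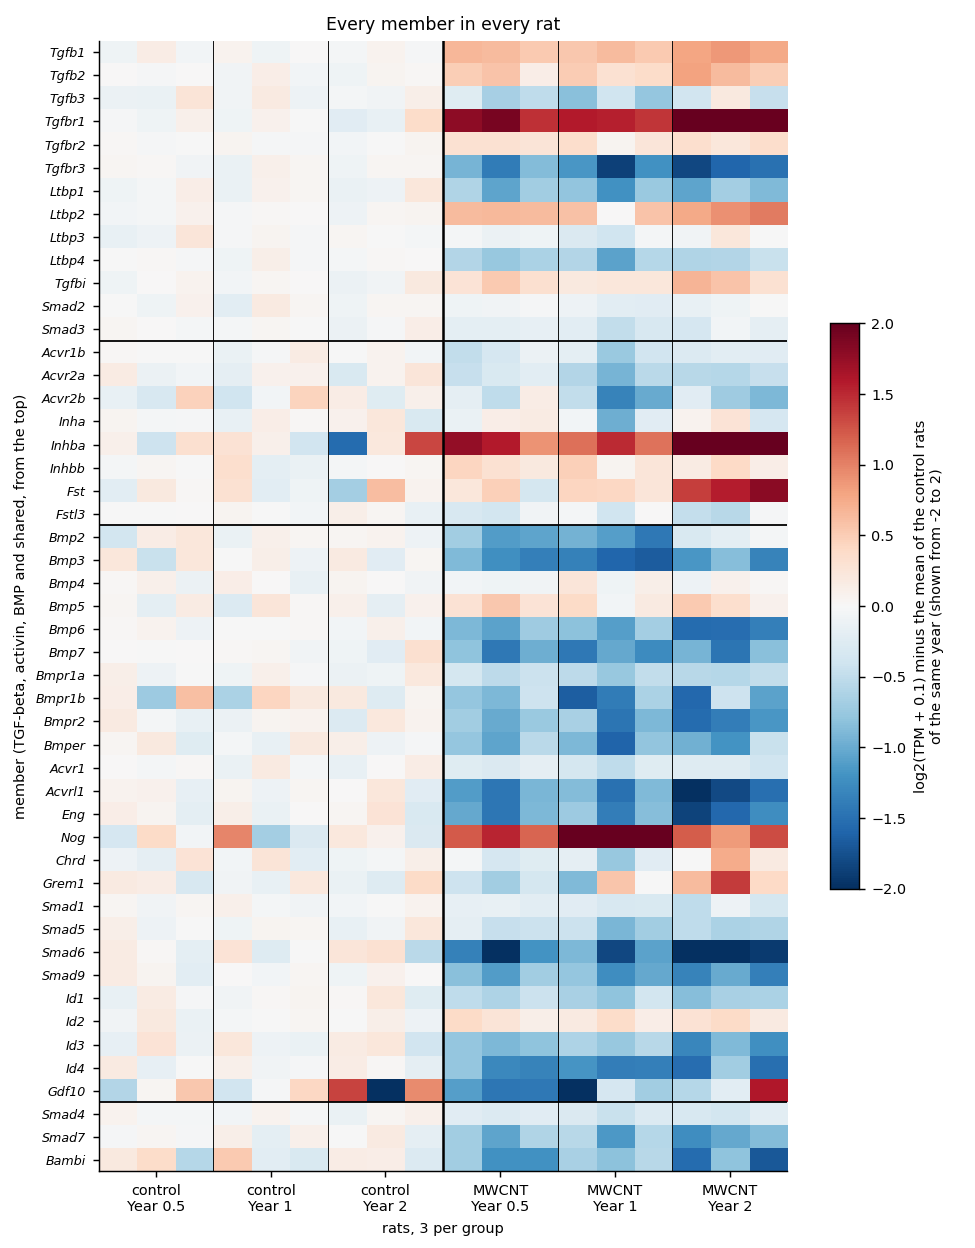
Level of every member (rows) in every rat (columns), as log2(TPM + 0.1) minus the mean of the control rats of the same year, from blue (lower) to red (higher). The 9 MWCNT-treated rats are red for *Tgfbr1*, *Inhba* and *Nog* and blue for *Smad6*, *Acvrl1* and *Tgfbr3*.

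Promoter sequences from RefSeq (build GRCr8) were matched by symbol for 42 of the 49 members. They are shown for 5 members on either side of the pattern that carry the GC-rich palindrome GGCGCC, known as a binding element of the BMP receptor Smads. Each is the 250 bases before the start of the gene, written 5′ to 3′ on the strand of the gene, with the motif in capitals. *Tgfbr1* (chr5:66449148-66449397, plus strand) and *Nog* (chr10:74627502-74627751, minus strand) were upregulated, and *Tgfbr3* (chr14:2634044-2634293, plus strand), *Smad9* (chr2:141106418-141106667, plus strand) and *Bambi* (chr17:58821004-58821253, minus strand) were downregulated.
Tgfbr1: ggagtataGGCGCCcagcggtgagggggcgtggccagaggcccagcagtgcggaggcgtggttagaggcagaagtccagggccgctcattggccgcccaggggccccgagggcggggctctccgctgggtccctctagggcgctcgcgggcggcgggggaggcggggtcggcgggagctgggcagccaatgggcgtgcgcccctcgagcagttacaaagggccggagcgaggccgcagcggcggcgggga
Nog: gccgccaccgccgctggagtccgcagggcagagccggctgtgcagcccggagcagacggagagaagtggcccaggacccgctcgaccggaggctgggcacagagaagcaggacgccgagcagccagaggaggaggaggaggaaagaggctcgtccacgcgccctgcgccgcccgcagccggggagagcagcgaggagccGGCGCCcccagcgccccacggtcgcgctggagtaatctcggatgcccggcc
Tgfbr3: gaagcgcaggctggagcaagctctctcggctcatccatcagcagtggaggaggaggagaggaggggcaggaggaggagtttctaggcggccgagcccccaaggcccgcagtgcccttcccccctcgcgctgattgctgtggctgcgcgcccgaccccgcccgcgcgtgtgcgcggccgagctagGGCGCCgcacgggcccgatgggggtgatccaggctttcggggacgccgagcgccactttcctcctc
Smad9: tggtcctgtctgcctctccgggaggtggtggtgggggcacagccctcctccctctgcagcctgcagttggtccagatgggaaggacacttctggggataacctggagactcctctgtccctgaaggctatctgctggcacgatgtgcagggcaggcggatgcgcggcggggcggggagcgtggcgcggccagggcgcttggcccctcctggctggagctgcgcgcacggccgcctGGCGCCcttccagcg
Bambi: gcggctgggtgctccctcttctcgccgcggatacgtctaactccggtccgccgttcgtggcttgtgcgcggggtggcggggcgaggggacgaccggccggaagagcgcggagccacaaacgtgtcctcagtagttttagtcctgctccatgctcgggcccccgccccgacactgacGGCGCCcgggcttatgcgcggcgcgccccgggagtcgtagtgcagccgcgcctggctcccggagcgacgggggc
The motif begins 242, 51, 66, 15 and 74 bases before the start of *Tgfbr1*, *Nog*, *Tgfbr3*, *Smad9* and *Bambi*. Searched on both strands in windows of 300 bases, which also hold the first 50 bases of the gene, GGCGCC was in 18 of 42 members (42.9%) and in 3234 of 27457 promoters of all genes (11.8%). By direction at Year 2 it was in 5 of 14 members that were higher, 8 of 17 that were lower and 5 of 11 that did not pass. The element CAGAC of Smad3 and Smad4, which can overlap the palindrome by 1 base, was in 14 of 42 members (33.3%) and in 50% of all promoters. GGCGCC holds only G and C, and the share of G and C in the member windows ranged from 30% (*Bmpr1a*) to 84.3% (*Inhbb*). The members were not compared with promoters of like G and C content, so the shares do not show an excess of the motif beyond base content. The matches describe the letters in these windows only.

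*Tgfb1*, the main TGF-beta ligand and the member ligand of highest mean level, was higher at each time point. At Year 0.5 its TPM was 117, 137 and 120.2 in control rats, against 197, 192 and 179 after MWCNT. At Year 1 it was 132, 119 and 127 against 183, 194 and 180.4. At Year 2 it was 130.5, 141 and 133 against 234, 245 and 227. Treated rats lay above control rats throughout, with log2 fold changes of 0.75 (SE 0.08, FDR 0.000186), 0.80 (0.09, FDR 0.000208) and 1.02 (0.07, FDR 4.53e-06), the last of them a DEG. *Tgfb2* was also higher each time, with log2 fold changes of 0.56, 0.63 and 0.87. *Tgfb3* did not pass (-0.34, -0.42 and 0.03, FDR at least 0.056). The summed TPM of the 3 ligands was 169 to 189 in control rats and 229 to 310 in MWCNT-treated rats.

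Among the genes *Ltbp1* to *Ltbp4* of the latent TGF-beta binding protein family, *Ltbp2* was higher and *Ltbp1* and *Ltbp4* were lower at all 3 time points. Which of the encoded proteins held latent TGF-beta was not measured. *Ltbp2*, a matrix protein of elastic fibers, had a TPM of 79.1, 80.2 and 87.2 in control rats against 127, 129 and 127 in treated rats at Year 0.5. At Year 1 these were 79.5, 81.6 and 80.6 against 122, 81.4 and 119, and at Year 2 they were 61.3, 67.7 and 68.6 against 111, 124 and 135. In TPM, rat 2 of the treated group at Year 1 lay within the control range, and the other treated rats were above it, while on the TMM scale all were above. The log2 fold changes of *Ltbp2* were 0.78 (SE 0.06), 0.64 (0.12) and 1.12 (0.08), with FDR 3.57e-05, 0.00276 and 6.38e-06, and the call at Year 1 was lost with limma on TPM (FDR up to 0.0972). *Ltbp1* had log2 fold changes of -0.64, -0.67 and -0.66, and *Ltbp4*, the most abundant of the family, of -0.52, -0.50 and -0.33. *Ltbp3* passed at Year 2 only (0.27, FDR 0.029), and that call was lost on leaving out control rat 2 or 3 or MWCNT-treated rat 2, with an FDR of up to 0.102, and with library size scaling, limma and a replicate block (up to 0.699).

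The signalling receptors of the TGF-beta arm rose and the co-receptor fell. *Tgfbr1*, the type I receptor that phosphorylates Smad2 and Smad3 (ENSRNOG00000007036, chromosome 5, 63050758 to 63119635 in Rnor_6.0), had a TPM of 33.0, 31.4 and 35.9 in control rats against 116, 124 and 91.8 in treated rats at Year 0.5. It was 32.3, 36.3 and 34.2 against 102, 101 and 92.3 at Year 1, and 26.0, 27.5 and 39.1 against 136, 136 and 120.3 at Year 2. All treated rats lay above all control rats each time, and *Tgfbr1* was 3.67-fold, 3.39-fold and 4.94-fold higher (log2 1.88 ± 0.12, 1.76 ± 0.08 and 2.31 ± 0.14, SE; FDR 1.24e-05, 2.7e-06 and 3.21e-06). *Tgfbr2*, the type II receptor, was higher by log2 fold changes of 0.43, 0.45 and 0.53, the call at Year 1 being lost with limma on TPM (FDR up to 0.118). *Tgfbr3* encodes betaglycan, a co-receptor that presents ligand and also binds inhibin. Its TPM was 112, 110.0 and 104 in control and 56.7, 41.3 and 59.3 in treated rats at Year 0.5, 102, 119.6 and 114 against 49.8, 30.6 and 48.0 at Year 1, and 87.6, 95.4 and 95.1 against 26.1, 30.8 and 32.9 at Year 2. All treated rats were below all control rats, and the log2 fold changes were -0.91 (SE 0.12, FDR 0.000428), -1.16 (0.14, FDR 0.000346) and -1.42 (0.08, FDR 2.42e-06).

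Downstream of these receptors, *Smad2* and *Smad3* had log2 fold changes between -0.10 and 0.14 and passed at no time point (lowest FDR 0.132). *Tgfbi*, a matrix protein induced by TGF-beta, was higher each time by 0.52, 0.46 and 0.74.

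*Inhba*, the beta A subunit of activin A (ENSRNOG00000014320, chromosome 17, 51898217 to 51912496), was a low-abundance gene with 18, 10 and 19 counts in control rats against 59, 72 and 32 in treated rats at Year 0.5, 16, 15 and 12 against 35, 54 and 35 at Year 1, and 1, 8 and 18 against 92, 125 and 88 at Year 2. In TPM these were 0.847, 0.564 and 1.01 against 2.89, 2.57 and 1.54 at Year 0.5, 0.904, 0.788 and 0.531 against 1.66, 2.21 and 1.66 at Year 1, and 0.0532, 0.416 and 1.03 against 4.56, 5.43 and 4.13 at Year 2. Every treated rat was above every control rat of its time point, and the level was 3.18-fold, 2.97-fold and 11.1-fold higher (log2 1.67 ± 0.34, 1.57 ± 0.32 and 3.47 ± 0.54, SE; FDR 0.00496, 0.0047 and 0.000716). The size at Year 2 depended on 1 control rat: without control rat 3 it was 22.4-fold. *Inhbb*, the more abundant beta B subunit, was higher by 0.46, 0.48 and 0.45 on the log2 scale, and the call at Year 1 was lost on leaving out control rat 2 or 3 or MWCNT-treated rat 1 or 3 (FDR up to 0.115) and with library size scaling or limma on TPM (up to 0.265). With limma the call of *Inhbb* at Year 2 was lost too (FDR up to 0.0849). *Inha*, the inhibin alpha subunit, did not pass at any time.

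*Fst* encodes follistatin, which binds and neutralises activins. Its TPM was 4.93, 6.57 and 5.80 in control rats against 6.74, 7.97 and 4.49 in treated rats at Year 0.5, 5.27, 3.67 and 4.02 against 5.75, 5.72 and 5.07 at Year 1, and 2.11, 5.33 and 3.61 against 9.12, 10.4 and 12.3 at Year 2. The groups overlapped at Year 0.5 (log2 fold change 0.31, FDR 0.392), and at Year 1 the difference did not pass (0.59, FDR 0.0744). At Year 2 all 3 treated rats were above the control rats, with 3.34-fold higher expression (log2 1.74 ± 0.30, SE; FDR 0.00136). The follistatin-like gene *Fstl3* and the type I receptor *Acvr1b* did not pass at any time, nor did the type II receptor *Acvr2b*. *Acvr2a*, the other type II receptor, was lower at Year 1 (-0.45, FDR 0.00682) and at Year 2 (-0.33, FDR 0.038). The call at Year 2 was lost on leaving out control rat 2 or 3 or any MWCNT-treated rat (log2 -0.34 to -0.22, FDR up to 0.112) and with a replicate block, and without control rat 3 the value was -0.22.

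*Bmp6*, one of the 2 abundant BMP ligands of these lungs (ENSRNOG00000013717, chromosome 17, 26955142 to 27112820), had a TPM of 174, 182 and 161 in control rats against 92.6, 81.7 and 105 in treated rats at Year 0.5. It was 155, 154 and 157 against 87.8, 72.3 and 97.1 at Year 1 and 155, 173 and 154 against 55.2, 55.7 and 62.1 at Year 2. The groups did not overlap at any time point, and *Bmp6* was 1.68-fold, 1.54-fold and 2.4-fold lower (log2 -0.75 ± 0.09, -0.62 ± 0.09 and -1.26 ± 0.07, SE; FDR 0.000312, 0.000698 and 2.6e-06). *Bmp4*, the other abundant ligand and a factor of lung development, had log2 fold changes of 0.07, 0.32 and 0.22 (FDR 0.462, 0.0276 and 0.0374). Both of its calls were lost on leaving out control rat 2 or 3, or MWCNT-treated rat 3, or MWCNT-treated rat 1 at Year 1 and rat 2 at Year 2 (FDR up to 0.115 and 0.116), and both with library size scaling and with limma on TPM (up to 0.577 and 0.968).

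The minor BMP ligands were below 11 TPM. *Bmp3*, which antagonises other BMPs, was at 10.7, 6.71 and 10.7 TPM in control rats and 4.90, 3.84 and 3.48 TPM in MWCNT-treated rats at Year 0.5, at 8.60, 9.30 and 7.98 against 3.31, 2.82 and 2.65 at Year 1, and at 7.73, 5.81 and 6.96 against 2.97, 3.73 and 2.63 at Year 2. It was lower at each time point without overlap (log2 -1.06, -1.32 and -0.92; FDR 0.00285, 6.34e-05 and 0.00213). *Bmp7*, an epithelial ligand, was at 4.51, 4.48 and 4.54 TPM in control rats against 2.53, 1.62 and 2.25 TPM in treated rats at Year 0.5, 3.63, 3.64 and 3.40 against 1.26, 1.70 and 1.43 at Year 1, and 3.55, 3.21 and 4.77 against 1.94, 1.31 and 2.07 at Year 2. It too was lower each time (log2 -0.95, -1.03 and -0.90; FDR 0.0105, 0.00847 and 0.0265), although the call at Year 2 was lost on leaving out control rat 1 or 3 or MWCNT-treated rat 1 or 2 (FDR up to 0.0897). *Bmp2* was at 4.21, 6.09 and 6.39 TPM in control rats and 3.33, 2.48 and 2.58 TPM in treated rats at Year 0.5, 5.15, 6.09 and 5.80 against 2.88, 2.59 and 2.04 at Year 1, and 3.95, 4.04 and 3.58 against 3.09, 3.33 and 3.75 at Year 2. Its fall passed at Year 0.5 (-0.85, FDR 0.0124, and 0.0513 without MWCNT-treated rat 2) and Year 1 (-0.94, FDR 0.00273), while at Year 2 the groups overlapped (log2 fold change 0.03, FDR 0.9).

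*Bmp5* was the one minor ligand with higher calls, at Year 0.5 (0.52, FDR 0.0204) and Year 2 (0.55, FDR 0.0294). These were lost without control rat 1 or 2 or MWCNT-treated rat 2 at Year 0.5 (FDR up to 0.0811) and without control rat 2 or MWCNT-treated rat 1 or 2 at Year 2 (FDR up to 0.12), both with limma on TPM, and that at Year 2 with library size scaling. *Gdf10*, a BMP-like ligand related to *Bmp3*, rested on few reads, with 13, 18 and 28 counts in control rats and 8, 8 and 6 in treated rats at Year 0.5, 14, 20 and 33 against 0, 20 and 13 at Year 1, and 38, 1 and 26 against 9, 14 and 52 at Year 2. In TPM it was 0.508, 0.843 and 1.23 against 0.326, 0.237 and 0.24 at Year 0.5, 0.657, 0.872 and 1.21 against 0, 0.68 and 0.51 at Year 1, and 1.68, 0.0432 and 1.24 against 0.37, 0.505 and 2.03 at Year 2. It was lower at Year 0.5 (log2 -1.53 ± 0.43, FDR 0.0217), a call lost without control rat 3 or MWCNT-treated rat 2 or 3 (FDR up to 0.0852) and in the model of 18 rats (FDR 0.216), and its groups overlapped at the later time points. At Year 2 its control rats alone spanned 1 to 38 counts.

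The receptors of the BMP arm were lower or did not pass, and none was higher. *Acvrl1*, the endothelial type I receptor ALK1 (ENSRNOG00000028713, chromosome 7, 142776252 to 142787335), had a TPM of 529, 532 and 449 in control rats against 232, 185 and 267 in treated rats at Year 0.5. It was 466, 419 and 460.5 against 246, 159 and 243 at Year 1 and 495, 575 and 419.6 against 119, 141 and 172 at Year 2. The groups were well apart, and *Acvrl1* was 2-fold, 1.78-fold and 2.97-fold lower (log2 -1.002 ± 0.13, -0.83 ± 0.14 and -1.57 ± 0.15, SE; FDR 0.000381, 0.00153 and 3.29e-05). *Eng*, its co-receptor endoglin and the receptor gene of highest level among the members, was at 937, 892 and 751 TPM in control and 419.5, 314 and 458 TPM in treated rats at Year 0.5, 828, 697 and 768 against 459, 293 and 423 at Year 1, and 783, 915 and 613 against 212, 255 and 320.2 at Year 2. Its log2 fold changes were -0.97 (SE 0.13), -0.74 (0.14) and -1.34 (0.17), with FDR 0.000638, 0.00315 and 0.000211. *Bmpr2*, the type II receptor whose loss is linked to pulmonary arterial hypertension, was at 228, 197 and 182 TPM in control rats against 124, 99.6 and 121 TPM in treated rats at Year 0.5, 176, 199 and 199.7 against 122, 69.2 and 103 at Year 1, and 134, 188 and 171 against 56.1, 62.4 and 72.9 at Year 2. No treated rat reached a control rat, and the log2 fold changes were -0.68, -0.74 and -1.15 (FDR 0.00106, 0.00466 and 5.48e-05).

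*Bmpr1a*, a widely expressed type I receptor, fell by 0.29, 0.36 and 0.33 on the log2 scale, and its call was lost without control rat 1 or MWCNT-treated rat 2 at Year 0.5 and without MWCNT-treated rat 2 at Year 2 (FDR up to 0.0671). *Bmpr1b*, a related receptor of low level, was at 3.54, 1.90 and 4.91 TPM in control rats and 1.85, 1.68 and 2.40 TPM in treated rats at Year 0.5, 2.43, 5.16 and 4.40 against 1.15, 1.38 and 2.42 at Year 1, and 2.72, 1.96 and 2.47 against 0.733, 1.75 and 1.07 at Year 2. It passed at Year 1 only (log2 -1.05 ± 0.36, SE, FDR 0.0416), with groups that overlapped on the TMM scale, and the call was lost without control rat 2 or 3 or MWCNT-treated rat 1 or 2 (FDR up to 0.147). *Acvr1*, the type I receptor ALK2, did not pass at any time, with log2 fold changes between -0.13 and -0.09.

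Among extracellular antagonists, *Nog* encodes noggin, which blocks BMP4 from its receptors (ENSRNOG00000023683, chromosome 10, 76811759 to 76813386). Its TPM was 4.28, 7.08 and 5.23 in control rats against 12.8, 15.8 and 12.2 in treated rats at Year 0.5, 7.01, 2.14 and 2.84 against 18.5, 14.9 and 15.7 at Year 1, and 8.26, 7.59 and 5.84 against 16.6, 12.9 and 17.8 at Year 2. All treated rats were above all control rats of their time point, with 2.74-fold, 4.85-fold and 2.52-fold higher expression (log2 1.45 ± 0.21, 2.28 ± 0.36 and 1.33 ± 0.19, SE; FDR 0.000889, 0.00119 and 0.000429). Without control rat 1 at Year 1, which was the highest of the 3, the rise was 7.71-fold. *Bmper*, an extracellular modulator of BMPs in endothelium, was lower by log2 fold changes of -0.66, -0.86 and -0.64, the last of them lost without control rat 1 or MWCNT-treated rat 1 or 2 (FDR up to 0.0838). *Grem1*, encoding gremlin, was near the limit of detection, with 22, 18 and 13 counts in control rats and 13, 14 and 14 in treated rats at Year 0.5, 8, 8 and 13 against 4, 19 and 10 at Year 1, and 12, 11 and 17 against 24, 49 and 21 at Year 2. In TPM it was 0.694, 0.681 and 0.462 against 0.427, 0.335 and 0.453 at Year 0.5, 0.303, 0.282 and 0.385 against 0.127, 0.522 and 0.317 at Year 1, and 0.428, 0.384 and 0.653 against 0.797, 1.43 and 0.661 at Year 2. It was higher at Year 2 (log2 1.20 ± 0.40, SE, FDR 0.0347), a call lost without control rat 1 or 2 or MWCNT-treated rat 1 or 2 (FDR up to 0.161), with DESeq2, with limma, with a replicate block and with library size scaling. *Chrd*, encoding chordin, did not pass at any time.

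Inside the cell, *Smad6*, which inhibits BMP receptor signalling and is itself a BMP target (ENSRNOG00000009173, chromosome 8, 68898296 to 68966108), was the Smad of highest level. Its TPM was 482, 435 and 377 in control rats against 168, 107 and 187 in treated rats at Year 0.5, 429.9, 297 and 354 against 191, 101 and 169.6 at Year 1, and 528, 550.0 and 308 against 53.3, 89.9 and 119 at Year 2. The highest treated rat was below the lowest control rat each time, with 2.55-fold, 2.01-fold and 4.59-fold lower expression (log2 -1.35 ± 0.18, -1.01 ± 0.21 and -2.20 ± 0.29, SE; FDR 0.000506, 0.0046 and 0.000261). Of the BMP receptor Smads, *Smad9* was at 19.0, 17.5 and 14.7 TPM in control and 9.43, 7.79 and 10.4 TPM in treated rats at Year 0.5, 16.1, 15.4 and 16.5 against 9.35, 6.68 and 7.77 at Year 1, and 14.3, 15.9 and 15.1 against 5.93, 7.46 and 5.77 at Year 2. It was lower without overlap at each time point (log2 -0.75, -0.78 and -1.02; FDR 0.00168, 0.000591 and 5.85e-05). *Smad1* did not pass at any time (log2 fold changes -0.03, -0.05 and -0.10), and *Smad5* passed at Year 1 (-0.44, FDR 0.0103) and Year 2 (-0.37, FDR 0.0147), the latter lost without MWCNT-treated rat 2 or 3 (FDR up to 0.0618).

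The *Id* genes encode inhibitors of differentiation that are direct BMP targets, and 3 of the 4 were lower at every time point. *Id1*, the most abundant, fell by 0.38, 0.36 and 0.51 on the log2 scale (FDR 0.00929, 0.013 and 0.00535, and 0.0532 at Year 1 without control rat 3). *Id3* fell by 0.69, 0.42 and 0.94 (FDR 0.00161, 0.0147 and 0.00152). *Id4*, the least abundant, was at 37.4, 29.2 and 32.7 TPM in control and 19.3, 13.4 and 12.9 TPM in treated rats at Year 0.5, 33.0, 29.1 and 30.1 against 13.6, 11.8 and 11.8 at Year 1, and 33.6, 30.8 and 26.6 against 10.5, 18.6 and 10.6 at Year 2. Treated rats were below control rats throughout, by 0.98, 1.08 and 0.99 (FDR 0.00159, 0.000114 and 0.00463). *Id2* was higher instead, by 0.39, 0.47 and 0.49 (FDR 0.0201, 0.00561 and 0.00162). Its call at Year 0.5 was lost on leaving out control rat 1 or 3 or MWCNT-treated rat 1 or 2 (FDR up to 0.0772) and with library size scaling. With limma on TPM the calls of *Id2* at Year 0.5 and Year 1 were lost, and with a pseudocount of 0.1 also that at Year 2.

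Of the shared members, the common partner *Smad4* did not pass at any time (log2 fold changes -0.10, -0.10 and -0.08). *Smad7*, an inhibitory Smad, fell by 0.64, 0.52 and 0.84 (FDR 0.00125, 0.0182 and 0.000252). Its call at Year 1 was lost without control rat 1 or 3 (FDR up to 0.0639). *Bambi*, a decoy receptor without kinase activity, was at 35.7, 40.0 and 20.9 TPM in control and 19.1, 13.3 and 13.3 TPM in treated rats at Year 0.5, 26.1, 15.7 and 14.6 against 11.5, 10.3 and 12.4 at Year 1, and 27.7, 27.5 and 20.7 against 8.54, 14.3 and 7.69 at Year 2. It was lower at Year 0.5 (log2 -0.94, FDR 0.0142), a call lost without control rat 1 or MWCNT-treated rat 2 or 3 (FDR up to 0.0597), and at Year 2 (-1.10, FDR 0.00413). At Year 1 the log2 fold change was -0.49 (FDR 0.11).

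**Figure D3:**
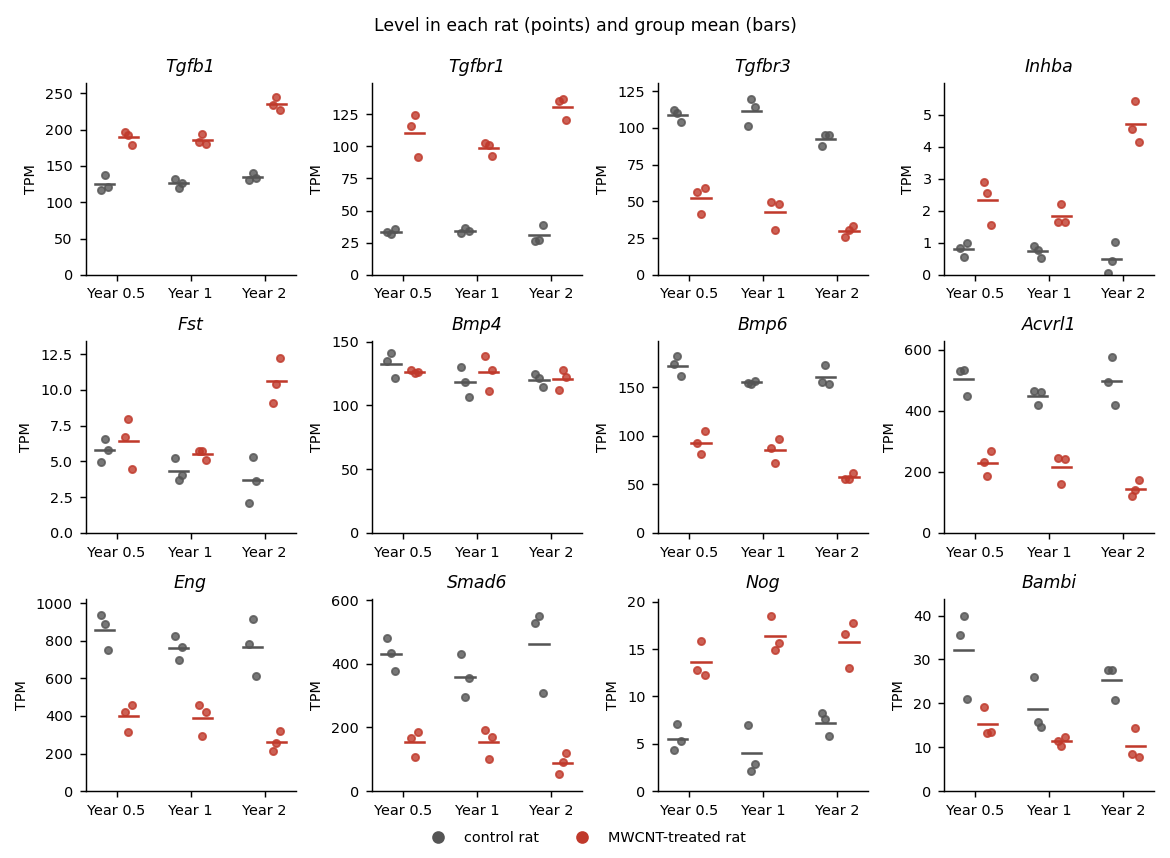
TPM (y axis, from 0) of 12 members in each of the 18 rats by time point, with control rats in grey, MWCNT-treated rats in red and group means as horizontal bars. *Bmp4* overlaps between the groups, while *Tgfbr1*, *Bmp6*, *Acvrl1*, *Eng* and *Smad6* do not overlap at any time point.

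TPM of 1 library are shares of that library, and the TMM factors of control rats (1.034 to 1.076) exceeded those of MWCNT-treated rats (0.925 to 0.972), so a member whose TPM was slightly lower in treated rats could have a log2 fold change near 0, as for *Smad1*. On the TMM scale, the 3 treated rats lay above all 3 control rats for 11, 12 and 17 members and below them for 21, 23 and 20 at the successive time points. Among all genes tested the shares were 26.2%, 28% and 30.9% above and 25.5%, 26.9% and 28.9% below.

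The make-up of the families differed between the groups. *Bmp6* made up 52.1% ± 0.405, 52.3% ± 2.25 and 53.5% ± 1.95 (SD, n = 3) of the summed TPM of *Bmp2* to *Bmp7* in control rats at the 3 time points, and 39.3% ± 3.04, 38.1% ± 2.53 and 30% ± 1.65 in MWCNT-treated rats. *Bmp4* made up 40.1%, 39.8% and 40.1% in control rats and 53.5%, 56% and 62.7% in treated rats, so the leading BMP ligand was *Bmp6* in every control group and *Bmp4* in every treated group. The sum itself was 286 to 346 TPM in control rats and 182 to 246 TPM in treated rats. *Tgfb1* made up 69.9%, 72.7% and 74.2% of the TGF-beta ligands in control rats and 76.1%, 78.8% and 79.6% in treated rats, and *Tgfb3* 10.3% against 5.53% at Year 2. *Ltbp2* made up 12.5%, 12.6% and 13.1% of the summed TPM of *Ltbp1* to *Ltbp4* in control rats and 25.3%, 23.6% and 28.4% in treated rats.

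The balance of the type I receptors *Acvrl1* and *Tgfbr1* differed as well. *Acvrl1* exceeded *Tgfbr1* 15.2-fold ± 2.34, 13.1-fold ± 1.48 and 16.9-fold ± 5.41 in TPM (SD, n = 3) in control rats, and 2.13-fold ± 0.721, 2.2-fold ± 0.551 and 1.11-fold ± 0.285 in MWCNT-treated rats. The values of the 9 control rats, 10.7 to 20.9, did not overlap with those of the 9 treated rats, 0.881 to 2.91. This follows from the levels of both genes given above, which lay apart in opposite directions, and the ratio itself was not tested. The ratio of *Bmpr2* to *Tgfbr2*, both type II receptors, was 0.956 ± 0.0988, 0.897 ± 0.0907 and 0.831 ± 0.122 in control rats and 0.447 ± 0.0553, 0.387 ± 0.0689 and 0.26 ± 0.0325 in treated rats.

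**Figure D4:**
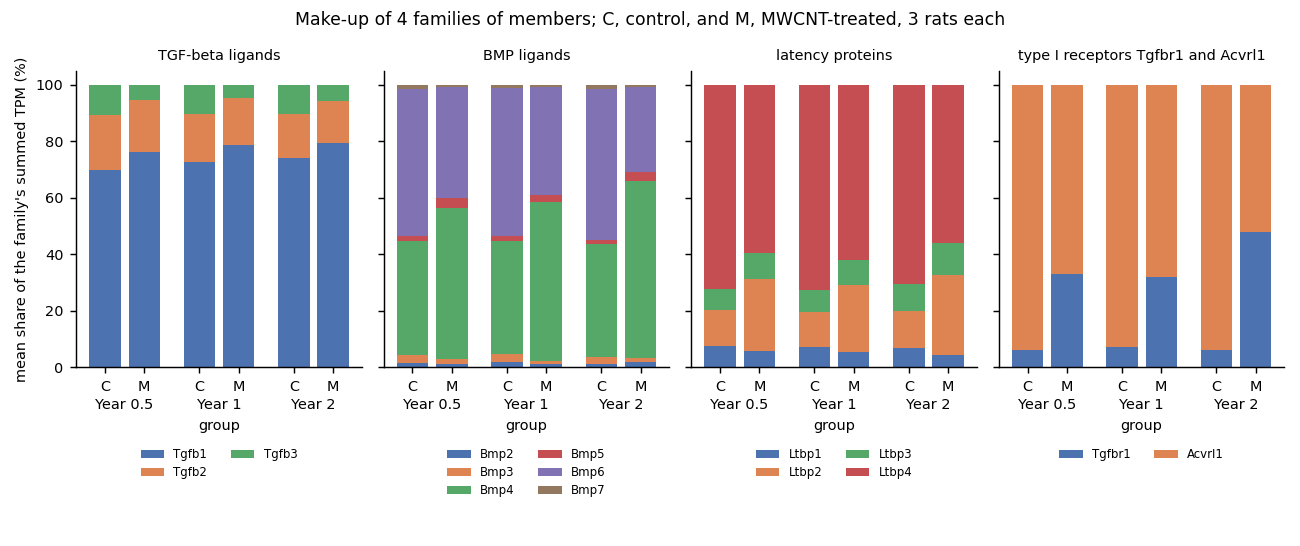
Mean share of each member in the summed TPM of its family (y axis, percent) at each time point. Bars are control (C) and MWCNT-treated (M) rats, 3 rats per bar. Panels show TGF-beta ligands, BMP ligands, *Ltbp1* to *Ltbp4* (titled latency proteins) and the type I receptors *Tgfbr1* and *Acvrl1*. *Tgfbr1* made up 6.02% of the receptor pair in control rats and 47.8% in treated rats of Year 2.

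Because the endothelial markers were lower in treated rats, the members known from endothelium were also expressed as a percentage of the summed TPM of the 9 endothelial markers. *Eng* was at 20.7%, 20.6% and 20.1% in control rats and 19.4%, 20.8% and 19.7% in treated rats. *Acvrl1* was at 12.1%, 12.1% and 13% against 11.2%, 11.5% and 10.9%, and *Bmp6* at 4.15%, 4.18% and 4.25% against 4.6%, 4.6% and 4.41%. The ranges of *Eng* overlapped at each time point, those of *Acvrl1* did so at Year 0.5 and Year 1, and those of *Bmp6* at Year 0.5 and Year 2. *Smad6* was at 10.4%, 9.67% and 12% in control rats and 7.45%, 8.1% and 6.42% in treated rats, with no overlap of the rats at Year 0.5 and Year 2. On this scale *Id1* was at 15.4%, 14.4% and 12.8% in control rats and 22.1%, 19% and 22.6% in treated rats, and *Smad7* at 2.27%, 2.25% and 2.54% against 2.69%, 2.66% and 3.53%. For both, every treated rat was above every control rat of its time point. *Bmpr2* was at 4.87%, 5.17% and 4.36% in control rats and 5.66%, 5.18% and 4.84% in treated rats. *Tgfbr3* was at 2.62%, 3.02% and 2.46% against 2.56%, 2.27% and 2.27%. For *Smad9* the values were 0.41%, 0.431% and 0.4% against 0.454%, 0.426% and 0.492%, and for *Id3* 7.07%, 6.04% and 7.8% against 8.21%, 7.74% and 10.3%. No test was run on these ratios. Which cells expressed the members was not measured.

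**Figure D5:**
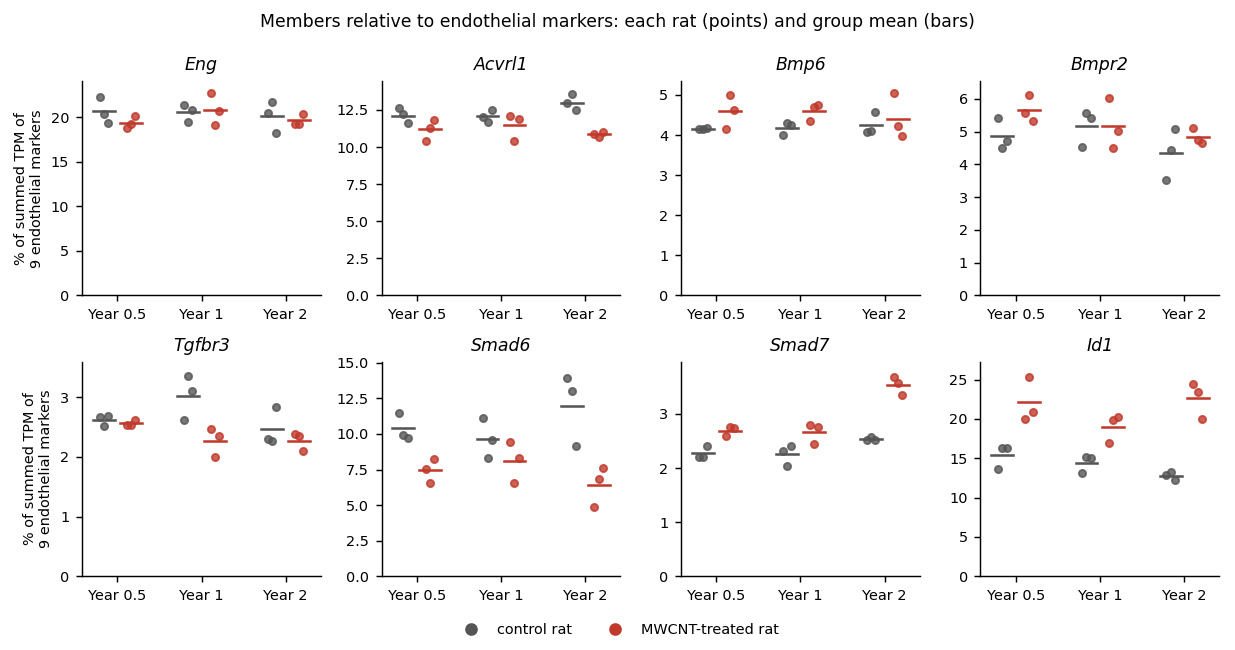
Level of 8 members as a percentage of the summed TPM of 9 endothelial markers (y axis, from 0) in each control rat (grey) and MWCNT-treated rat (red), with group means as bars. *Eng* lies near 20% in all 6 groups, while *Smad6* is lower and *Id1* and *Smad7* are higher in treated rats.

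Whether the effect of treatment differed between Year 2 and Year 0.5 was tested as the interaction of treatment and time in 1 model of the 18 rats. None of the 49 members passed by edgeR, beside 0.856% of all genes that passed upward and 0.451% downward. At an unadjusted p below 0.05 there were 14 of the 49 members, a larger share than the 13.8% of all genes. DESeq2 called 2, *Bmp6* and *Fst*, and limma on TPM called 0. The lowest FDR was that of *Bmp6*, with a difference of -0.51 ± 0.12 on the log2 scale (SE, FDR 0.0539), followed by *Fst* (1.44 ± 0.39, FDR 0.0777) and *Bmp2* (0.88 ± 0.25, FDR 0.0937). For *Inhba* the difference was 1.80 ± 0.66 (FDR 0.218) and for *Grem1* 1.67 ± 0.60 (FDR 0.206).

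From Year 0.5 to Year 2, 4 of 49 members (8.16%) were lower and 0 higher in control rats, beside 4% and 2.65% of all genes. These were *Ltbp1* (-0.54), *Ltbp4* (-0.42), *Id1* (-0.38) and *Bmpr1a* (-0.35). No control member passed upward by edgeR. An unadjusted p below 0.05 was found for 13 of 49 members, beside 24% of all genes. In MWCNT-treated rats 8 were lower (16.3%) and 3 higher (6.12%), beside 6.87% and 6.65% of all genes. The higher ones were *Tgfb1* (0.40), *Chrd* (0.71) and *Grem1* (1.34). The lower ones were *Bmpr2* (-0.76), *Tgfbr3* (-0.72), *Bmp6* (-0.60), *Acvrl1* (-0.58), *Ltbp1* (-0.55), *Id1* (-0.50), *Smad9* (-0.44) and *Bmpr1a* (-0.38). *Ltbp1*, *Id1* and *Bmpr1a* were thus lower at Year 2 in both groups of rats.

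Of 78 further genes of the pathways, 76 were in the tables and 54, 54 and 55 were tested at the 3 time points. Among them 15 were higher and 18 lower at Year 0.5, 14 and 17 at Year 1, and 19 and 18 at Year 2. The higher ones were 27.8%, 25.9% and 34.5% and the lower ones 33.3%, 31.5% and 32.7% of those tested, beside 20.2%, 21.6% and 25.2% higher and 18.6%, 19.6% and 24% lower among all genes. Of 9 tested genes for matrix latency and activation of TGF-beta, 5, 6 and 7 were higher (55.6%, 66.7% and 77.8%) and 1 was lower each time. These included the integrin subunit *Itgb8*, which releases active TGF-beta, with log2 fold changes of 2.23, 2.12 and 2.10 (FDR 5.62e-05, 9.86e-06 and 2.9e-05), and thrombospondin *Thbs1* with 1.50, 1.35 and 1.46 (FDR 0.00074, 0.000163 and 4.83e-05). Genes that respond to TGF-beta or BMP went both ways, with 5, 4 and 6 of 13 higher and 5, 4 and 4 lower and medians of -0.32, -0.34 and 0.03. Among them *Fn1*, encoding the matrix protein fibronectin, was higher by 0.98, 0.62 and 1.49 (FDR 6.9e-05, 0.00847 and 2.1e-06).

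Of 10 tested further extracellular antagonists, 7, 8 and 9 were lower (70%, 80% and 90%, beside 18.6%, 19.6% and 24% of all genes) and 1 was higher each time. The BMP antagonist *Chrdl1* had log2 fold changes of -0.96, -1.34 and -1.72. *Tmem100*, a target of the ALK1 receptor in endothelium, was at 465.7 to 717 TPM in control rats and 102 to 290 TPM in treated rats, with log2 fold changes of -1.13, -0.94 and -1.93. *Sostdc1*, another antagonist, had log2 fold changes of -0.97 (FDR 0.0838), -1.24 and -2.20, and the co-receptor *Hjv* of -1.64 (FDR 0.0198), -0.93 and -1.82, of which the last pair did not pass. The activin-type receptor *Acvr1c* had -1.09, -1.56 and -2.03, all past the test, and the ligand *Gdf6* was tested at Year 2 only, with 2.20 (FDR 0.0183). Among the further ligands, *Bmp15*, known as an oocyte factor, had 111 to 201 counts per control rat and 6 to 49 per treated rat, with log2 fold changes of -1.80, -2.14 and -3.29 (FDR 0.000415, 0.000218 and 3.32e-05).

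The comparisons rest on 3 rats per group of 1 lobe, and protein, phosphorylation of Smads and ligand activation were not measured here. Whether counting used the strand, and how it treated reads that fit more than 1 gene, is not given in the sources used here.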

How the data were processed

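Per the labels and the study's methods, RNA of 18 rat lungs was sequenced, and the authors mapped the reads to the rat genome (Rnor_6.0, rn6) with CLC Genomics Workbench. The deposited tables, 1 per time point, hold raw counts and TPM per gene and rat from the authors. The 36 RPKM and CPM columns and the columns of the authors' own comparisons (fold changes, p-values and means) were not used.

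The 49 members were matched by name. Members, their arms and roles, pathway lists and markers were chosen with earlier results of these data known. Counts of each time point (6 rats) were tested with edgeR 4.0.16 (R 4.3.3): filterByExpr (minimum count 10, minimum total 15), TMM scaling, the quasi-likelihood test and Benjamini-Hochberg adjustment over all genes tested. Time effects, and the interaction of treatment and time, came from 1 model of 18 rats. DESeq2 1.42.0 and limma 3.58.1 on log2(TPM + 1) and log2(TPM + 0.1) were alternatives, as were other filters, scalings and thresholds, 1 model of all rats, a replicate block and leaving out each rat. Values in every rat were given for members that were DEGs at some time, the 4 with the lowest interaction p, and the ligand, receptor and Smad of highest mean TPM. Of the further pathway genes, the 12 with the largest absolute log2 fold change among the DEGs were to be named, of which 10 are given and the others are not reported here. The test was tried on simulated counts. Total counts of 13297643 to 21130757 per rat set the precision, and genes of a few counts, such as *Grem1* and *Gdf10*, were measured poorly. Sequences came from RefSeq promoters of GRCr8, while gene positions are those of the deposited tables, and the builds were not mixed.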

Additional observations from a re-analysis of the deposited data

How the results depend on the processing

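Of 98 calls of a member at a time point, 73 were lost under no setting that tested the gene, the stricter thresholds aside. *Inhba* at Year 2, with 1, 8 and 18 counts in control rats, was not tested with at least 10 counts in every rat. Leaving out 1 rat at a time, counts of members past the test ranged from 9 to 11 higher and 16 to 22 lower at Year 0.5, 9 to 12 and 18 to 21 at Year 1, and 11 to 14 and 16 to 19 at Year 2. The interaction of treatment and time was passed by 0 to 2 members, with 1 without control rat 1 of Year 0.5 or control rat 2 of Year 2 and 2 without control rat 3 of Year 2 or MWCNT-treated rat 2 of Year 0.5. It was passed by 1 member, *Bmp6*, with no filter, with at least 10 counts in every rat, with library size scaling and with DESeq2 size factors, and by 2 with DESeq2. The time effect in control rats was passed by 1 to 4 members (2 without control rat 3 of Year 0.5, and 1 without control rat 1 or control rat 2 of Year 2), by 1 with limma and either pseudocount and by 0 at an FDR of 0.01. In MWCNT-treated rats it was passed by 7 to 13 (7 without MWCNT-treated rat 1 or 3 of Year 0.5) and by 7 at an FDR of 0.01. DEGs numbered 3 and 4, 3 and 6, and 7 and 8 members higher and lower at the 3 time points, and 0 and 1 for time in control and MWCNT-treated rats. With limma the members higher at Year 1 were 6 with either pseudocount, and those higher at Year 2 were 9 with a pseudocount of 0.1. The cause of these changes was not tested, except that thresholds were stricter. *Gdf10* at Year 2, which did not pass (log2 0.17), changed sign with limma on log2(TPM + 1) (-0.001), without control rat 2 (-0.405) and without MWCNT-treated rat 3 (-0.942), and with 1 rat left out it ranged from -0.942 to 0.851.

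Same-numbered rats of the groups did not deviate together (mean correlation 0.0108, from -0.19 to 0.13 over 9 pairs), so the numbers do not pair the rats. With the replicate number as a block, 11 members were higher and 20 lower at Year 0.5, 11 and 22 at Year 1, and 12 and 19 at Year 2, and the interaction, control time and MWCNT time tests were passed by 0, 3 and 10. Counts limited the precision of *Inhba*, *Grem1* and *Gdf10*.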
